A study of Mus musculus with 5 samples.

Results

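Broad H3K27me3 domains of mouse epidermis are described here as the autosomal rows of the deposited H3K27me3 region list that were at least 30 kb wide. There were 827 such domains, 6.39% of the 12952 autosomal regions and 5.48% of the 15102 regions in the whole list. The domains were chosen by their width in that list, so their number and widths are a description with no test. Whether they also carried H2AK119ub played no part in the choice.

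The list comes from chromatin immunoprecipitation with sequencing of sorted basal epidermal progenitors, taken from the back skin of mice labelled control at postnatal day 71. All cells came from the double reporter K14-RFP;K10-H2B-GFP, in which red fluorescence follows the K14 keratin promoter of basal cells and green fluorescence the K10 keratin promoter of cells that have left the basal layer. Cells positive for Sca1, with high RFP and without GFP, were collected. There were 2 libraries for H3K27me3, 2 for H2AK119ub and 1 input library without antibody, and every group shared this genotype and age. The labels do not say what the control genotype is a control for, nor whether animals were pooled. Each mark has 1 deposited list of positions with no value per library, so the spread between replicates is unknown and no test was made.

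H3K27me3, trimethylated lysine in the tail of histone H3, is written by Polycomb repressive complex PRC2, through EZH1 or EZH2. H2AK119ub, a single ubiquitin on histone H2A, is written by the RING1 and RNF2 ligases of PRC1. Each complex can recognise the other's product, and both marks can spread from CpG-rich start sites across whole loci of genes that a cell type keeps off. In the skin epithelium, PRC1 and PRC2 are known to hold silent the regulators of other lineages, such as those of Merkel cells.

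The annotated start sites of 6 regulators that lie nearest the middle of very wide domains are shown first, since these loci carry the pattern that follows. Each line gives the 250 bases before the start, 5′ to 3′ on the gene's strand, from RefSeq on GRCm38.p6, with CG dinucleotides in capitals. The windows are chr19:44746351-44746600 on the plus strand for the paired-box gene Pax2, chr11:85896515-85896764 on the plus strand for the limb T-box gene Tbx4 and chr2:74697513-74697762 on the plus strand for Hoxd9. They are chr19:25610287-25610536 on the plus strand for Dmrt3, chr5:106458167-106458416 on the minus strand for the neuronal homeobox gene Barhl2 and chr4:114908899-114909148 on the minus strand for the forkhead gene Foxd2.
Pax2: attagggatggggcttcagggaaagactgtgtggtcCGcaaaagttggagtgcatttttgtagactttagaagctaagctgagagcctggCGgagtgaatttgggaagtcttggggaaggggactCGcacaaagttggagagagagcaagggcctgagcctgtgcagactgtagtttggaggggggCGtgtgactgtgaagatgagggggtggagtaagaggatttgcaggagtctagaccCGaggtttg
Tbx4: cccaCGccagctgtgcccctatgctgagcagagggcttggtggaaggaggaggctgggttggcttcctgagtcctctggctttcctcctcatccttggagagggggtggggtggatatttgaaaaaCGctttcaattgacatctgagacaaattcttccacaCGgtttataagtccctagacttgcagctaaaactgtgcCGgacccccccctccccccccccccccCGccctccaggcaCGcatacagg
Hoxd9: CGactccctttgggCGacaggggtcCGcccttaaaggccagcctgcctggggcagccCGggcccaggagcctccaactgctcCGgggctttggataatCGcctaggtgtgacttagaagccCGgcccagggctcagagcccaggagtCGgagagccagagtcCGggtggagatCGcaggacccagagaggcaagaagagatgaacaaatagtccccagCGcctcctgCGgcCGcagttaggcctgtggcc
Dmrt3: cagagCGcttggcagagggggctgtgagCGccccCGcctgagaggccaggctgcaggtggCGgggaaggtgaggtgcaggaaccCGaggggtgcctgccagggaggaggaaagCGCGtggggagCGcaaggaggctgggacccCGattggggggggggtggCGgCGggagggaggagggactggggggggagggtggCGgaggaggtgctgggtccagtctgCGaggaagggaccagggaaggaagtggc
Barhl2: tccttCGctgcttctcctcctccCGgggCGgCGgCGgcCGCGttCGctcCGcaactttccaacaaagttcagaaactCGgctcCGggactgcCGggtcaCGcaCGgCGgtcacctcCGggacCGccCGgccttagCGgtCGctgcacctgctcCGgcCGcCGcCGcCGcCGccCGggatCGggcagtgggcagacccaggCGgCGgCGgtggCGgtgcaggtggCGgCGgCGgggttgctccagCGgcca
Foxd2: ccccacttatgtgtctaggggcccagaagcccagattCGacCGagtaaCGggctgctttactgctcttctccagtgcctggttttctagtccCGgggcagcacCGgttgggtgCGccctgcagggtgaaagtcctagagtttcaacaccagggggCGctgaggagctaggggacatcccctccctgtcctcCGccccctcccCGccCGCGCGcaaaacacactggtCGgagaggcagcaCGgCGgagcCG

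All 6 start sites lay under H2AK119ub, which covered 78.3% of the length of broad domains in general. The windows differed widely in CG content although every one sat deep inside a domain. Barhl2 held 36 CG dinucleotides and a ratio of observed to expected CG of 1.03. Pax2 held 5 with a ratio of 0.39, and Tbx4 held 6 with a ratio of 0.28. The start in the table for Tbx4 lies 10.4 kb inside the annotated gene, so its window does not describe sequence before the gene's outer end, and that of Dmrt3 lies 0.291 kb inside. For Pax2 the table holds 3 starts, and the one shown is at the gene's outer end. The windows of Hoxd9 and Dmrt3 held 13 each, and that of Foxd2 held 16. The Pax2 start was 115.0 kb from the nearer edge of its domain, the Barhl2 start 37.7 kb.

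Broad domains also held miRNA genes, whose mature sequences come from RefSeq on GRCm38.p6. Those of the miR-9 and miR-196 families, whose genes all lay inside, and of Mir10b in the Hoxd domain are shown. The seed, bases 2 to 8 from the 5′ end, is in capitals.
miR-9-5p: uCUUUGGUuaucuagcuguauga
miR-196a-5p: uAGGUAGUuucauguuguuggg
miR-196b-5p: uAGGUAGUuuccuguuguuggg
miR-10b-5p: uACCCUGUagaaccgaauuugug

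The miR-196a and miR-196b sequences share 1 seed, and the seeds of miR-9 and miR-10b differ from it and from each other. All 3 Mir9 genes of the table lay inside broad domains. Mir9-1 was in a 54.4 kb domain on chromosome 3, Mir9-2 in a 45.8 kb domain on chromosome 13 and Mir9-3 in a 139.8 kb domain on chromosome 7 at the ammonia transporter gene Rhcg. All 3 Mir196 genes were inside as well, in the domains of the Hoxa, Hoxb and Hoxc clusters. Mir10b lay in the Hoxd domain, while Mir10a of the Hoxb cluster lay outside. In all, 44 of 1136 autosomal miRNA genes were wholly inside a broad domain, a background share of 3.87%, counting entries on opposite strands of 1 locus separately. They fell in 32 domains. H2AK119ub covered 42 of the 44 genes whole, and it covered 78.3% of the length of broad domains in general. Its share over all autosomal miRNA genes was not counted, so the 42 are no result about miRNA genes. Mir124a-1 was the single one of 3 Mir124a genes inside.

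The 827 domains added up to 42.3 Mb, which is 28.2% of the autosomal length carrying H3K27me3 and 1.73% of the autosomal span. Their median width was 41.8 kb, with quartiles of 34.5 and 55.7 kb and a maximum of 300.2 kb. Of these, 369 domains, or 44.6%, were under 40 kb, and 50 reached 100 kb. Just inside the minimum lay domains of 30018 bp at Dpysl4, 30022 bp in Cacna1i, 30055 bp in Dnah5 and 30080 bp at Rbm24. Just outside it lay regions of 29962 bp on chromosomes 5 and 8, each with no protein-coding gene. Next were regions of 29938 bp at Gata2 and 29931 bp at Prrx1, both transcription factor genes that the minimum left out.

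The widest domain, chr8:120795391-121095600, spanned 300.2 kb and held the whole of Foxf1, a forkhead factor of gut and lung mesenchyme. Foxf1 lay near its high edge, at bases 121084386 to 121088154, and the rest of the domain held lncRNA genes and no other whole protein-coding gene. The second, chr19:44581305-44861877, was 280.6 kb wide and held Pax2, a kidney and midbrain regulator, as its only protein-coding gene. The third held Foxb1, a hypothalamic forkhead factor, in 203.5 kb on chromosome 9. The fourth held Tbx2 and Tbx4, limb and heart T-box genes, in 199.3 kb on chromosome 11. The fifth was 179.5 kb on chromosome 18 and held an end of the growth factor gene Fgf1.

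The Hoxd cluster formed 1 domain of 178.1 kb, chr2:74612602-74790673, with 9 Hoxd genes and Evx2. Skap1, a T-cell adaptor gene, had a 176.0 kb domain lying within its body and reaching neither end. The low end of Skap1 lay in a neighbouring domain of 87.7 kb. Together, 3 broad domains filled 98.6% of chr11:96431651-96763317, a stretch that runs past both ends of the gene. Next came Dmrt1, Dmrt3 and Dmrt2, genes of the DM domain family, in 170.6 kb, and Barhl2 in 162.9 kb. The Hoxc domain of 159.5 kb ran from Hoxc13 to Hoxc6. Vax2, an eye homeobox gene, shared 158.4 kb with the lectin genes Clec4f and Cd207. Foxc2 and Foxl1 shared 157.8 kb. The 3 remaining domains among the 15 widest were 148.7 kb at Pik3r5 and Ntn1, 145.6 kb at Pax3 and 142.1 kb at Hoxb13, Hoxb9 and Hoxb8. Regulators of the fixed families thus stood in 12 of these 15.

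**Figure D1:**
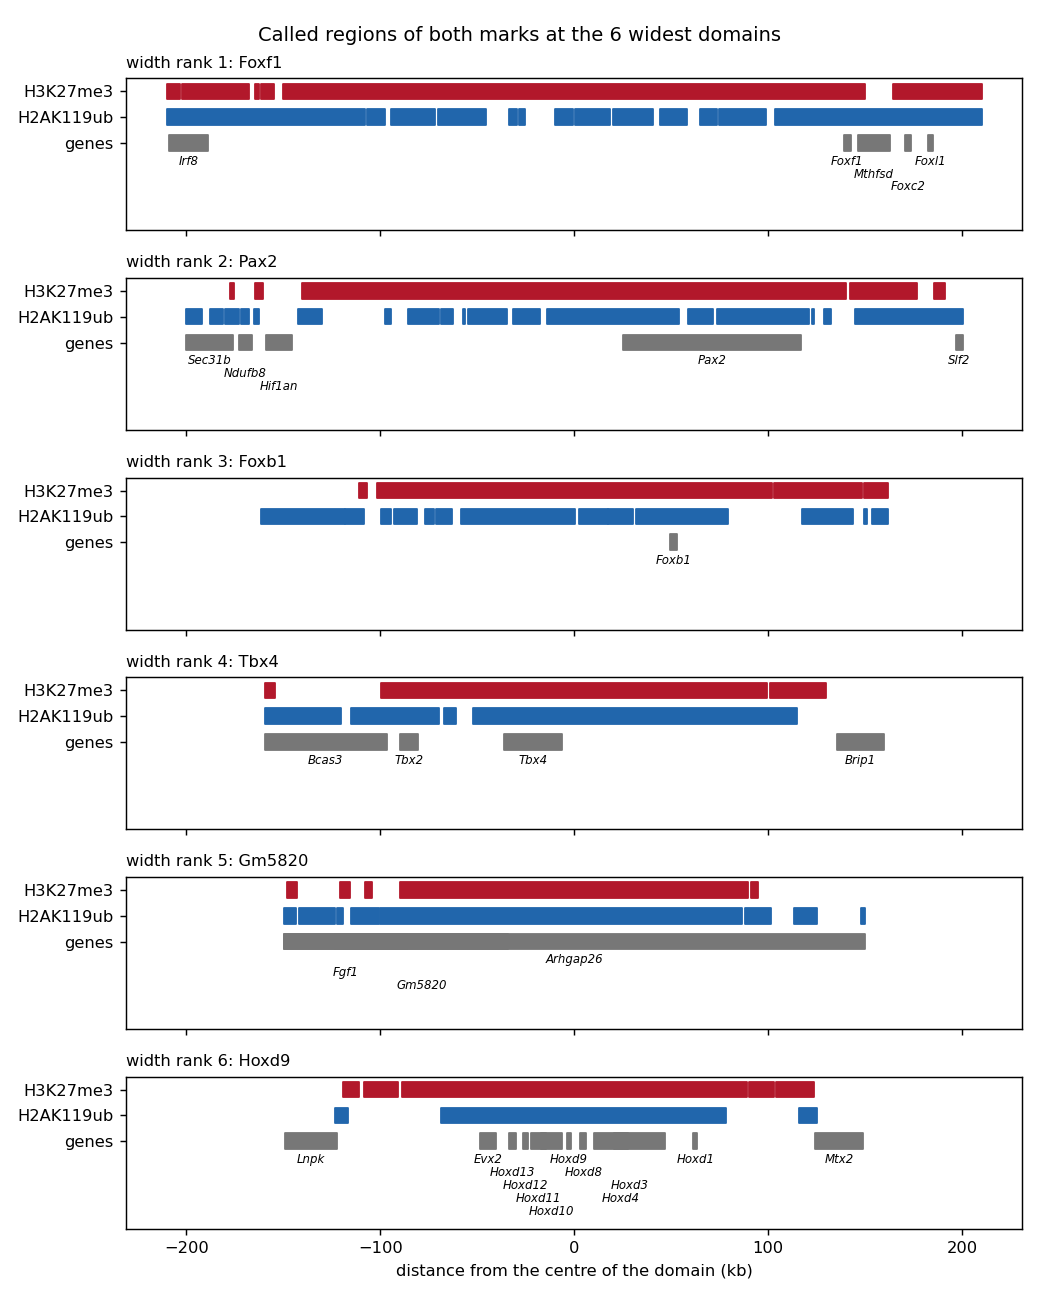
Maps of the 6 widest broad domains, drawn to scale by distance in kb from the centre of each, with H3K27me3 regions, H2AK119ub regions and protein-coding genes on separate tracks. The Foxf1 domain reaches 300.2 kb and the Pax2 domain 280.6 kb, and H2AK119ub covers most of each in several pieces.

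The genes inside were read from the RefSeq table, where a gene counts as inside when an annotated end lies in a domain. This held for 743 of 20665 autosomal protein-coding genes, a background share of 3.60%. A list of 421 developmental transcription factors, drawn from 18 families, had 194 members inside, or 46.1% (exact 95% interval 41.2 to 51.0%). A further 113 had an end only in a narrower H3K27me3 region, and 114 had an end in none. The listed factors made up 26.1% of all genes inside. Among all autosomal genes, 15.8% had an end only in a narrower region.

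LIM homeobox factors, which pattern limbs and neurons, had 10 of 12 members inside. Lhx2, a hair follicle stem cell regulator, was alone in 134.8 kb, and Lmx1a, Lhx6 and Lhx5 lay in 80.1, 65.5 and 58.5 kb. The other 2, Isl2 and Lhx3, were in narrower regions. Pax factors had 7 of 9 inside, with Pax5, the B-cell factor, in 103.9 kb and Pax7, the muscle stem cell factor, in 81.1 kb. NK homeobox factors had 28 of 37 inside, led after Barhl2 and Vax2 by En2 in 125.3 kb and Nkx2-3 in 99.0 kb. Their other 9 members were in narrower regions, so no listed LIM, Pax or NK gene lacked H3K27me3 at its ends.

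T-box factors had 11 of 16 inside. Tbx3, a limb and mammary factor, lay in 118.0 kb and Tbx5, the forelimb and heart factor, had an end in 78.3 kb. The 6 Dlx genes had 4 inside as 2 pairs, Dlx5 with Dlx6 in 108.1 kb and Dlx1 with Dlx2 in 42.2 kb. Sine oculis homeobox and Eya factors had 6 of 10 inside, with the eye and forebrain gene Six3 sharing 122.2 kb with the kidney gene Six2 and Six6 in 86.1 kb. GATA factors had 3 of 5 inside, with Gata4 in 119.1 kb, Gata6 in 37.6 kb and Gata3 in 33.3 kb. DM domain factors had 4 of 7 inside, of which Dmrta2 lay in 58.1 kb apart from the Dmrt1 cluster.

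Hox genes had 25 of 39 inside, in only 4 domains. Of the others, 3 were in narrower regions and 11 had no H3K27me3 at an end. The Hoxa domain, chr6:52210968-52334952, was 124.0 kb wide and held Evx1 with Hoxa13, Hoxa11, Hoxa10, Hoxa9, Hoxa7 and an end of Hoxa3. From the Hoxb cluster only Hoxb13, Hoxb9 and Hoxb8 were inside. All 9 Hoxd genes were therefore inside together, while Hoxa2, Hoxa4, Hoxa5 and Hoxa6 were among those that had no H3K27me3 at an end.

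The other homeobox factors had 31 of 60 inside, among them Dmbx1 in 109.6 kb, Uncx in 107.6 kb and Gbx2 in 104.5 kb. Forkhead factors had 20 of 41 inside, and Foxd2 shared 136.7 kb with the lens gene Foxe3. POU factors had 6 of 14 inside, led by Pou3f3 in 58.2 kb, and Zic and Gli factors had 4 of 10, as the pairs Zic1 with Zic4 in 85.0 kb and Zic5 with Zic2 in 83.3 kb.

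In the remaining families under 30% of the members were inside. The bHLH lineage factors had 17 of 59. Among them were the oligodendrocyte genes Olig2 in 100.4 kb and Olig1 in 82.0 kb, with Olig3 in 79.6 kb and Neurog1 in 74.9 kb. Sox factors had 4 of 18, namely Sox1 in 83.5 kb, Sox9 in 61.8 kb, Sox2 in 61.4 kb and Sox14 in 41.5 kb, while 11 were in narrower regions. Klf and Sp factors had 5 of 25, led by Klf14 in 60.5 kb, and 17 with no H3K27me3 at an end. Nuclear receptors had 8 of 47, led by Nr2f2 in 101.2 kb, Nr2e1 in 91.3 kb and Rxrg, which shared 80.1 kb with Lmx1a. Iroquois factors had 1 of 6, Irx3 in 69.0 kb.

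**Figure D2:**
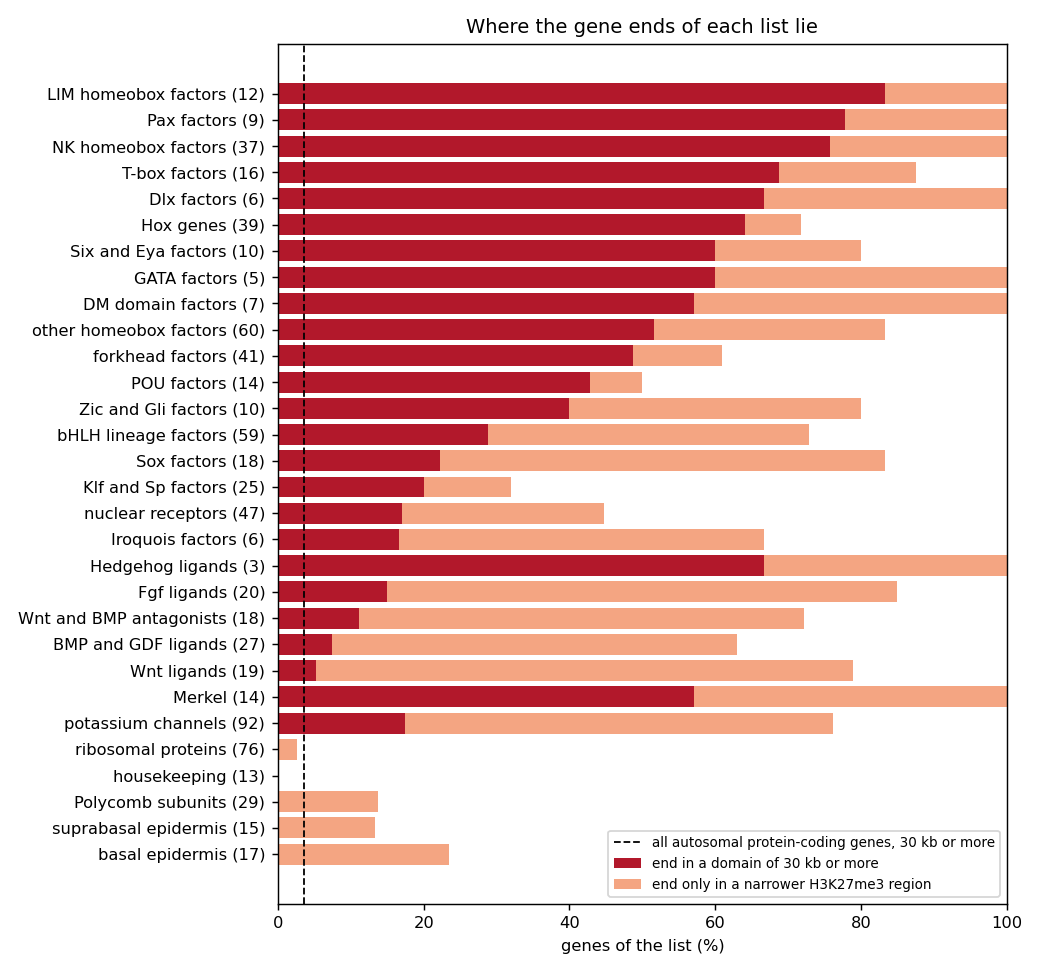
For each family or list, the percent of its genes with an end in a broad domain, or only in a narrower H3K27me3 region. The rest of each bar stands for genes in none, and the dashed line marks the 3.60% of all genes. LIM homeobox factors have 10 of 12 genes in broad domains. The ribosomal protein list has 0 of 76, which is near the background.

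Secreted ligands and their antagonists, which carry signals between cells in development, had 10 of 87 members inside, or 11.5%. This lies below the 46.1% of the transcription factors, a difference that was not tested. A further 55 had an end only in a narrower region. Of the Hedgehog ligands, Ihh lay in 44.0 kb and Shh in 33.1 kb. The Fgf ligands inside were Fgf1, Fgf3 in 50.8 kb and Fgf5 in 31.4 kb, which is 3 of 20. Wnt8b, in 37.2 kb, was the single Wnt of 19 inside, and 14 other Wnt genes were in narrower regions. Of the BMP and GDF ligands Gdf6, in 49.7 kb, and Bmp10, in 34.3 kb, were inside. Of the antagonists Sost, a bone Wnt inhibitor, lay in 72.5 kb and Sfrp5 in 40.2 kb.

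None of the 17 listed basal epidermal genes and none of the 15 suprabasal genes had an end inside, although 4 and 2 of them had one in a narrower region. The 9 defining basal markers, Krt5, Krt14 and Trp63 among them, had no H3K27me3 at either end, and 8 of them carried H2AK119ub at an end. Over all autosomal protein-coding genes with no end in a broad domain, 46.9% carried H2AK119ub at an end. The list of 13 housekeeping genes, the 76 ribosomal protein genes, the 1104 olfactory receptor genes, the 29 Polycomb subunit genes, the 67 protocadherin genes and the 9 endothelial genes also had none inside. With 3.60% of all genes inside, a count of 0 in any of these lists but that of the olfactory receptors is near the background. Such a count is no result about those genes.

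Merkel cell genes were the skin list with most members inside, 8 of 14, and the other 6 were in narrower regions. Krt8 and Krt18, simple-epithelium keratins of Merkel cells, shared 82.3 kb with an end of Krt78, and H2AK119ub covered 98.2% of it. Gfi1 lay in 63.4 kb, Sox2 in 61.4 kb, Pou4f3 in 48.9 kb, Insm1 in 41.1 kb, Cck in 39.0 kb and Isl1 in 33.8 kb. All of these but Cck, which encodes a neuropeptide, are transcription factor genes, and Sox2, Pou4f3 and Isl1 are also counted in the families above. A bulk list does not give the share of cells that carry a mark. H2AK119ub covered 97.9% of the Isl1 domain but 22.6% of that of Pou4f3.

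Of 13 hair follicle genes, 5 transcription factors were inside: Lhx2, Foxe1 in 68.1 kb, Tbx1 in 64.6 kb, Sox9 and Gata6. A further 4 were only in narrower regions and 4 in none. Of 14 melanocyte genes, the neural crest factors Pax3 and Foxd3, in 42.5 kb, were inside. Another 4, Sox10, Kit, Ednrb and Mc1r, were only in narrower regions. The remaining 8, with the pigment enzyme genes Tyr, Tyrp1 and Dct among them, had no H3K27me3 at an end. Of 16 pigmentation factors that keratinocytes can make, Asip, which encodes the agouti protein that antagonises the melanocortin receptor, was the single one inside. Of the rest, 6 were only in narrower regions and 9 in none. The Asip domain of 47.9 kb held the low end of the annotated gene, at base 154950599, and H2AK119ub covered 46.0% of the domain. The start site listed for Asip lay outside it. A listed start can lie away from a gene's outer end, as for Tbx4, so this does not show whether the low end inside the domain is also a start of Asip. Of 12 dermal fibroblast genes, 8 were only in narrower regions and 3 in none, and Pdgfra, a growth factor receptor, was the single one inside, with its start in a 38.0 kb domain. Cd207, the langerin gene of Langerhans cells, was the single immune gene of 10 inside, with 3 only in narrower regions and 6 in none. Over all autosomal protein-coding genes the share inside was 3.60%. In lists this short, the counts of 1 or 2 for melanocyte, pigmentation, fibroblast and immune genes are near that background. They are no result about those genes.

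Cell cycle inhibitors were either in a broad domain or free of H3K27me3 at their ends. Cdkn2a and Cdkn2b, the INK4 and ARF locus, lay in 52.4 kb with 99.8% H2AK119ub cover, and the imprinted Cdkn1c lay in 49.6 kb with 97.8%. The other 4 of the 7 had no H3K27me3 at an end. Potassium channel genes, which set the resting and firing state of excitable cells, had 16 of 92 inside, among them Kcnk1 in 58.1 kb, Kcnq1 in 53.7 kb and Kcna1 in 52.6 kb.

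Most domains did not hold a whole gene. A protein-coding gene lay wholly inside 268 domains, or 32.4%, and 58 of these held at least 2. Per Mb, broad domains held 8.41 whole genes, against 5.29 in regions of 10 to 30 kb and 3.32 in regions under 10 kb. A short region cannot hold a long gene whole, so the values of the narrower classes are not on an equal footing. The autosomes held 8.46 protein-coding genes per Mb, a count of every gene and so an unlike measure. Counted by genes with an end inside, the order was the reverse. There were 17.5 per Mb in broad domains, 27.7 in regions of 10 to 30 kb and 39.0 in those under 10 kb. A listed regulator had an end in 161 domains, or 19.5%, against a background of 1.01% of autosomal regions under 30 kb. Their median width was 53.5 kb.

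The share of domains with a regulator was higher in each wider class, from 9.76% at 30 to 40 kb through 20.4% at 40 to 60 kb and 33.3% at 60 to 100 kb to 52.0% at 100 kb or more. Width chose the domains, and a wider window meets more genes, so this is a description. The share with any gene end was 59.3% in the narrowest class and 78.0% in the widest. The other classes were 368 domains with the end of another gene, 94 lying within gene bodies and 204 meeting no protein-coding gene. An lncRNA gene met 418 of the 827, or 50.5%, against 28.9% of regions of 10 to 30 kb and 18.6% of those under 10 kb. This share also went with width, from 39.6% at 30 to 40 kb to 86.0% at 100 kb or more.

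The domains richest in whole genes were the Hoxd domain with 10, the Hoxc domain with 6 and the Hoxa domain with 6. Next was a 40.2 kb domain on chromosome 5 with 4 chemokine genes, Cxcl5, Ppbp, Pf4 and Cxcl3, all covered by H2AK119ub. Among those with 3 whole genes, the widest was a 110.2 kb domain with Klhl22, Scarf2 and Car15. Others with 3 held Nes, Bcan and Hapln2, genes of neural progenitors and neural matrix, in 76.8 kb, and the water channels Aqp2, Aqp5 and Aqp6 in 64.1 kb. Clustered genes of 1 kind thus shared a domain at several loci.

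The widest domains without a protein-coding gene were as wide as those of major regulators. They were chr11:84670056-84798050 at 128.0 kb, chr13:55871161-55992820 at 121.7 kb and chr9:61149623-61268304 at 118.7 kb. Then came chr13:98496095-98602575 at 106.5 kb and chr11:84563104-84669141 at 106.0 kb. The last lay 0.914 kb from the first, so the pair nearly forms 1 stretch. H2AK119ub covered 73.5, 79.4, 100, 93.6 and 96.5% of them in that order.

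H2AK119ub met 814 of the 827 domains, or 98.4% (exact 95% interval 97.3 to 99.2%), against a background of 69.4% of autosomal regions under 30 kb. A wide region meets another list more easily than a narrow one, so the covered length is the fairer measure. H2AK119ub covered 78.3% of the length of broad domains, 65.2% of regions of 10 to 30 kb and 55.8% of those under 10 kb. It covered 17.5% of the autosomal span as a whole. These intervals cover counting error only, and neighbouring domains are not independent.

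Cover was high but seldom complete. The median domain was covered over 85.9% of its width, with quartiles of 61.7 and 99.6%. At least 50% of the width was covered in 683 domains, and the whole width in 184, or 22.2%. The whole width was covered in 30.0% of regions of 10 to 30 kb and 41.1% of those under 10 kb, so the order is the reverse of that for length. A single H2AK119ub region met 437 domains, while 377 met at least 2. The Foxf1 domain met 13 and was covered over 82.5%, and the Pax2 domain met 12 and was covered over 72.5%. The Hoxc and Hoxb13 domains were covered whole.

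**Figure D3:**
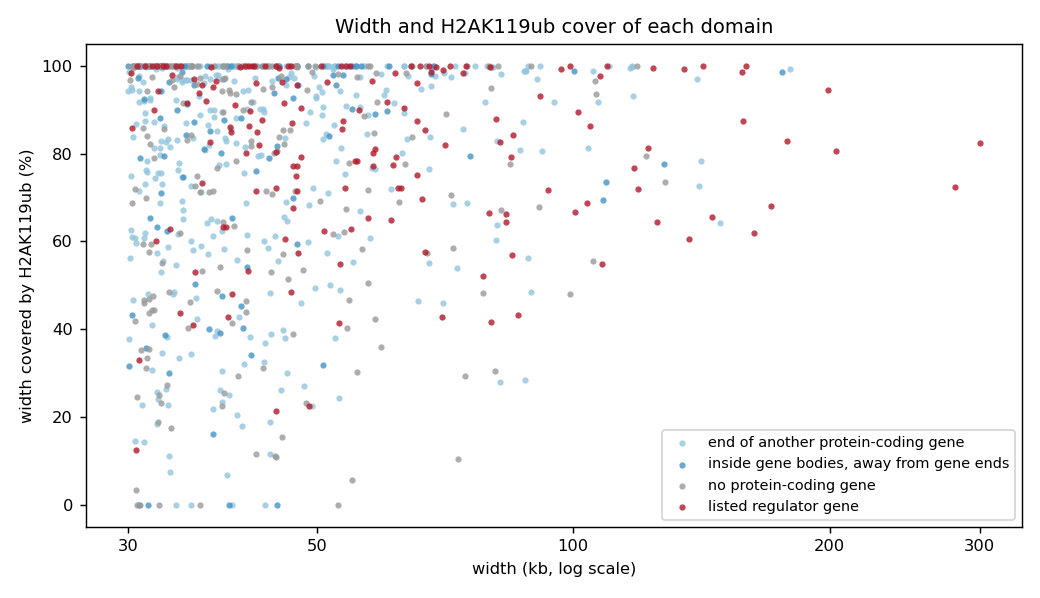
H2AK119ub cover of each of the 827 broad domains, as a percent of its width, against its width in kb on a log axis, coloured by the genes inside. The 161 domains with a regulator all meet H2AK119ub, with cover from 12.5 to 100%. Of all 827 domains, 98.4% meet it, so the 161 are near the share of all.

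By gene class, H2AK119ub covered 80.9% of the length of domains with a regulator, 79.2% of those with another gene end, 80.3% of those within gene bodies and 72.7% of those with no protein-coding gene. By width, it covered 74.5% at 30 to 40 kb and 83.9% at 100 kb or more. Of the 743 genes inside, 714, or 96.1%, had H2AK119ub at an end, against the background of 46.9% of autosomal genes with no end in a broad domain. Among the 194 regulators Nr5a2, a nuclear receptor of liver and pancreas, was the single one without, in a domain covered over 42.8%.

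The 13 domains that met no H2AK119ub included none with a listed regulator. Of all 827 domains 19.5% held one, so none among 13 is near that share and is no result about regulators. The widest was chr5:118898450-118951385, 52.9 kb with no gene. The next were 44.9 kb at Phactr1, 43.5 kb at Lrrc37a, 39.8 kb at Cc2d2b and 39.4 kb at Poln. Another 35 domains were covered over less than 25%. Among domains of at least 50 kb with some H2AK119ub, the lowest cover was 5.56% in a 55.0 kb domain on chromosome 7 and 10.4% in a 73.3 kb domain on chromosome 8, neither with a protein-coding gene. Tafa4 followed with 24.4% of 53.1 kb, then Lmo2, a blood stem cell factor, with 27.9% of 82.1 kb, and Pik3r6 with 28.5% of 87.7 kb.

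The edges of the domains were compared with the edges of H2AK119ub. An edge counts as crossed when 1 H2AK119ub region covers the 1 kb on both sides. Of 1654 edges, 803 were crossed, or 48.5% (exact 95% interval 46.1 to 51.0%), against a background of 44.1% in autosomal regions under 30 kb. Both edges were crossed in 247 domains, 1 edge in 309 and neither in 271. Where H2AK119ub covered the edge base, in 935 cases, it reached a median of 11.9 kb further, with quartiles of 3.12 and 35.8 kb. The longest reach was 463 kb, beyond the high edge of the 118.7 kb gene-free domain on chromosome 9.

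At most edges the marks did not end together. An H2AK119ub region ended within 1 kb of a domain edge, facing the same way, at 254 edges, or 15.4%, and within 5 kb at 674, or 40.7%. For regions of 10 to 30 kb the shares were 12.9 and 40.8%, and for those under 10 kb 10.5 and 31.6%. Edges that do not coincide were thus not particular to broad domains. Along the broad domains, the mean H2AK119ub cover was 63.7% in the outermost 5% of the width and 84.3% at the centre. Outside, it was between 51.7 and 53.3% at every step out to 20 kb. In regions of 10 to 30 kb it went from 54.7% at the edge to 70.3% at the centre and outside from 48.2 to 45.0%. Both classes were thus highest at the centre.

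**Figure D4:**
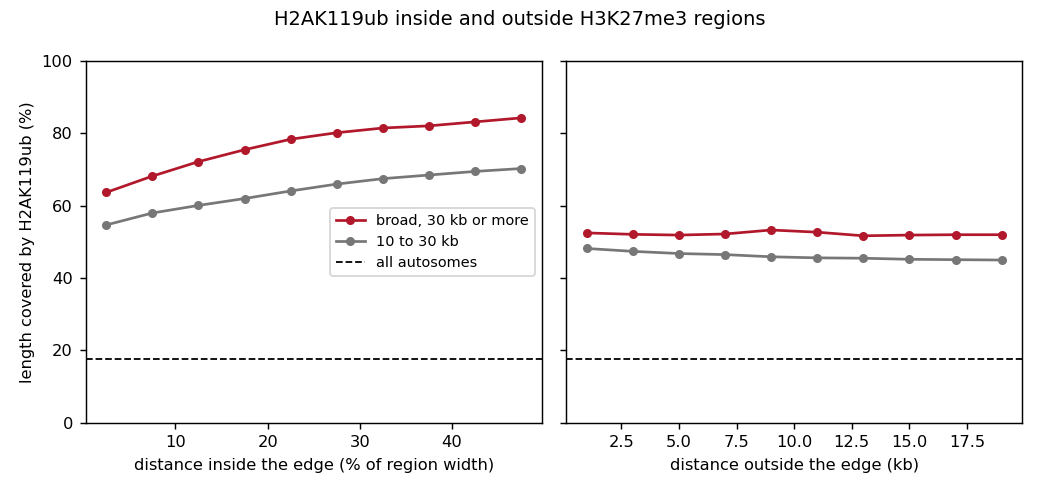
Mean length covered by H2AK119ub, in percent, for broad domains and for regions of 10 to 30 kb, against distance inside the edge in percent of width (left) and outside it in kb (right). Broad domains go from 63.7% at the edge to 84.3% at the centre and lie between 51.7 and 53.3% outside.

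Edges fell inside protein-coding genes at 600 of 1654 places, or 36.3%, against a background of 39.3% in regions under 30 kb. Another H3K27me3 region lay within 3 kb of 540 edges, or 32.6%, so these domains had a close neighbour. The same held for 22.1% of edges of regions of 10 to 30 kb and 13.3% of those under 10 kb. Gene starts within 5 kb outside an edge pointed away from the domain in 51 of 73 cases, or 69.9% (exact 95% interval 58.0 to 80.1%), against a background of 67.5%. Starts within 5 kb inside an edge pointed inward in 34 of 62 cases, or 54.8%, against a background of 53.2%. Both shares were near their background.

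Domains were spread unevenly over the 19 autosomes. The mean was 3.39 per 10 Mb. Chromosome 2 had 108 domains, or 6.04 per 10 Mb, followed by chromosome 19 with 5.49, chromosome 9 with 5.43 and chromosome 11 with 5.33. Chromosome 16 had 12, or 1.22 per 10 Mb, with chromosome 3 at 1.44 and chromosome 14 at 1.68. Chromosome 16 stayed lowest per 100 protein-coding genes, at 1.77, but chromosome 8 was then highest, at 6.23. With a minimum width of 20 or 50 kb, chromosome 9 or 11 was highest per 10 Mb and chromosome 3 lowest. The widest domain of a chromosome ran from 76.8 kb on chromosome 3, at Bcan, to the 300.2 kb of chromosome 8. On chromosome 10 it was 100.2 kb at the sulfotransferase gene Chst11, on chromosome 12 the Six6 domain and on chromosome 16 the Klhl22 domain. Broad domains held between 18.2% of the H3K27me3 length on chromosome 17 and 34.9% on chromosome 19. H2AK119ub covered between 67.3% of their length on chromosome 14 and 87.8% on chromosome 15.

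**Figure D5:**
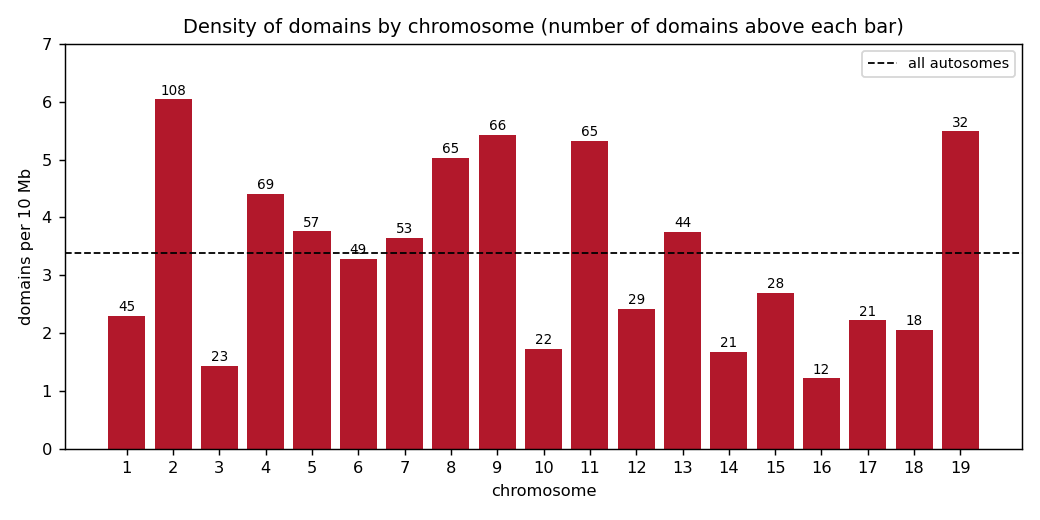
Broad domains on each of the 19 autosomes, as bars of the number per 10 Mb of chromosome span with the number of domains above each. Chromosome 2 stands highest at 6.04 and chromosome 16 lowest at 1.22.

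Domains often had another nearby. With gaps of up to 100 kb joined, the 827 domains formed 598 groups, in which 457 domains stood alone and 370, or 44.7%, had a neighbour. The group with most domains was chr6:99685322-100217190, with 7 domains over 532 kb at Eif4e3, Gpr27 and Prok2, and H2AK119ub covered 92.9% of that span. A further 6 groups had 6 domains each. One, chr8:120743226-121519092, held Irf8, Foxf1, Mthfsd, Foxc2 and Foxl1, and 654 kb of its 776 kb were broad domain, so 3 forkhead genes stood in 1 nearly continuous stretch. Another, of 408 kb on the same chromosome, held Irx3. The remaining ones included the locus of Hmx3 and Hmx2 on chromosome 7 and that of Cdh13 on chromosome 8.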

How the data were processed

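Chromatin of sorted epidermal cells was immunoprecipitated and sequenced as single reads, per the labels' protocols. The authors deposited 1 list of region positions per mark on mm10, with start and end in base pairs and no other value such as a score, signal, or count. Bowtie2 2.3.3.1 and SAMtools 1.9 appear in the submitters' processing notes without a stated role. How regions were called, at what threshold, and whether the 2 libraries of a mark were merged first is not stated in the labels, and the depth of each library is unknown. A different caller setting could split or join regions and so change which ones reach 30 kb.

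Positions were made 1-based. Regions were crossed with RefSeq genes of GRCm38.p6, the same build, in Python 3.11.15 with pandas 2.3.3 and numpy 2.4.6, and figures drawn with matplotlib 3.10.9. At least 1 shared base counts as meeting. The overlap and joining of regions were checked on simulated regions. Shares have exact Clopper-Pearson 95% intervals (scipy 1.17.1), which cover counting error only. Start sites come from a promoter table that held 562 of the 743 genes inside, 75.6%, too few for a comparison of CG content, which is therefore void. That table covers 18 of the 19 autosomes. Without replicate values or counts no test was run. Genes were named by the widest domains, gene families and skin cell lists, and the domains and lists were chosen with earlier results of these data known. A few genes that this rule would name are not reported here.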

Additional observations from a re-analysis of the deposited data

How the results depend on the processing

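With a minimum width of 20 kb there were 1702 domains, or 6.97 per 10 Mb, of which 95.2% met H2AK119ub, 22.7% held a whole protein-coding gene and 11.6% a regulator, and 39.4% of edges lay in a protein-coding gene. With a minimum of 50 kb there were 275 domains, or 1.13 per 10 Mb, and the shares were 99.6% for H2AK119ub, 44.7% for a whole gene and 31.6% for a regulator. With regions up to 3 kb apart joined first there were 1126, of which 97.2% met H2AK119ub and 16.0% held a regulator. H2AK119ub over at least 50% of the domain held for 82.6%. A gene end lay inside 64.0% and any part of a gene met 75.3%, while a whole regulator lay inside 15.4%. Edges crossed over 5 kb on both sides were 33.8%, edges with H2AK119ub at the edge base 56.5%, and edges inside any annotated gene 48.1%. Per 100 protein-coding genes there were 4.0 domains.

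The share of length under H2AK119ub stayed between 75.2 and 81.7% over the widths and joining tried, and the share of edges crossed over 1 kb between 47.4 and 48.9%. The chromosome with most domains per 10 Mb changed with the minimum: chromosome 9 at 20 kb, with 11.4, and chromosome 11 at 50 kb, with 2.13. Chromosome 3 was then lowest, with 2.75 and 0.375. No paired analysis was possible because each mark has 1 list with no value per library, and for the same reason no replicate could be left out and no stricter score tried. The CG comparison and its alternatives were not run, since too few genes had a promoter sequence.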

Other observations

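Genes inside broad domains without H2AK119ub at an end were 29 of 743, or 3.9%, and 1 of them was a listed regulator. The Wfdc genes, which encode small secreted proteins with whey acidic protein domains, were picked out after their values were seen. Of 18 such autosomal genes, 8 had an end in 4 broad domains, and 4 of the 8, Wfdc17, Wfdc8, Wfdc6b and Wfdc12, had no H2AK119ub at an end. The domain of Wfdc17 and Wfdc18 on chromosome 11 was 33.7 kb wide and covered over 7.58%. That of Wfdc8 and Wfdc6b, 32.3 kb, was covered over 74.5%, and that of Wfdc5 and Wfdc12, 31.4 kb, over 73.2%. The fourth, with Wfdc2 and Wfdc6a, was 49.9 kb wide and covered over 93.1%, and both of its Wfdc genes had H2AK119ub at an end.

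Igf2, an imprinted growth factor gene on chromosome 7, also picked out after its values were seen, lay whole in a 91.5 kb domain that H2AK119ub covered entirely.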
